A study of Homo sapiens with 24 samples.

Results

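RNA of A375 cells that carried SLNCR without its triplex-forming region 4 (ΔTFR4) was compared with RNA of A375 cells that carried the empty vector. The 6 libraries were chosen by their labels, as 3 ΔTFR4 and 3 empty vector libraries of batch 2, out of 24 libraries in the series. A375 is an established human melanoma cell line that the labels call epithelial. All cells were transfected with pcDNA3.1, a plasmid with a CAG promoter and puromycin resistance, using a cationic lipid reagent, and RNA was taken after 48 h in 2 µg/mL puromycin. Cells of all groups were grown in 10% serum. The ΔTFR4 plasmid held SLNCR lacking that region, the full-length plasmid held the whole of SLNCR, and the control held the vector backbone alone. The 3 full-length libraries of batch 2 were used as a second comparison, and the 3 libraries without region 5 entered the estimate of spread alone. Ribosomal RNA was depleted and fragments were read from both ends over 150 bases. Nothing in the labels says whether the 3 replicates of a group were separate transfections, beyond the series' statement that they are biological replicates. Cells were taken as a pool, so that a change in the share of cells of one kind and a change in RNA per cell cannot be told apart.

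SLNCR is a long noncoding RNA, held in the table under the symbol LINC00511, that has been studied in melanoma for its part in invasion and growth. Triplexes form where an RNA strand lies in the major groove of double-stranded DNA, which can bring the RNA to a promoter, and a triplex-forming region is the part of the RNA thought to do so. EGR1, an immediate-early transcription factor, and CDKN1A, the cell cycle inhibitor p21, are among the genes tied to SLNCR.

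Levels are in CPM, counts scaled to the size of the library and corrected by TMM so that libraries can be compared, and differences are log2 fold changes of ΔTFR4 over empty vector with their standard error (SE). The test was edgeR's quasi-likelihood test, adjusted by Benjamini-Hochberg over all 18763 genes tested, and genes with an adjusted p below 0.05 are those called here. The spread was estimated over all 4 groups of batch 2. Each SE and adjusted p of ΔTFR4 against empty vector therefore also carries the spread within the full-length group. Estimated counts summed to 25782653 to 26395119 in the ΔTFR4 libraries and 27461768 to 32304543 in the empty vector libraries. The median gene of a library lay 0.142 to 0.147 log2 units from the mean of the other replicates in ΔTFR4 and 0.122 to 0.164 in the empty vector, against 0.297 to 0.512 in the full-length group. The first full-length library lay furthest from the others of its group. Its deviations from the mean of the 12 libraries correlated with the share of G and C bases (GC) at a Spearman rho of -0.54, against -0.13 to 0.28 in the other libraries. The third full-length library lay nearer to the empty vector than the other 2 did for several genes described here, EGR1 and TXNIP among them. Values against the full-length group thus rest on libraries that stand apart from each other. Of 15 melanoma and neural crest markers, SOX10, MITF, SOX9, CSPG4 and AXL were abundant, and TYR and DCT were below the filter on low counts. Of the 13 tested, 2 rose, 3 fell and 8 were not called, a share of 38.5% called against 23.9% over all genes. SOX10 and the low S100A1 and S100B were those that fell. The markers summed to 2531 to 2705 CPM in ΔTFR4 and 2129 to 2166 CPM in the empty vector. Fibroblast markers summed to 22.8 to 27.3 CPM in ΔTFR4 and 21.0 to 24.8 CPM in the empty vector. Leukocyte markers stayed at or below 3.17 CPM, endothelial markers at or below 1.89 CPM and erythroid markers at or below 0.831 CPM in all 6 libraries. LYZ, 1 of the 2 tested leukocyte markers, was called lower, a call lost in 5 of the 6 fits that left 1 library out. With empty vector 3 as the only control, the log2 fold change of LYZ was -0.43.

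Empty vector libraries 1 and 2 held transcripts of epithelial and mucosal genes that empty vector library 3 and the ΔTFR4 libraries nearly lacked. KRT19, a keratin of simple epithelia, measured 0.0773, 0.189 and 0.112 CPM in the ΔTFR4 libraries, against 5.85, 5.85 and 0.151 CPM in the empty vector libraries. MUC5AC, a secreted gel-forming mucin, measured 0.927, 0.831 and 1.00 CPM in the ΔTFR4 libraries, against 22.8, 25.1 and 0.719 CPM in the empty vector libraries. CXCL5, GRB7, MACC1, LGALS4, EREG and CDH1 showed the same split within the empty vector group. Of the 8 epithelial markers, which summed to 428 to 542 CPM in ΔTFR4 and 596 to 655 CPM in the empty vector, KRT19 and CDH1 were called lower, EPCAM was below the filter and the other 5 were not called. Of those tested, 28.6% were called, against 23.9% over all genes. KRT18 and KRT8 made up most of these sums and did not show the split. In empty vector 1, 2 and 3, KRT18 measured 449, 458 and 513 CPM and KRT8 measured 120, 124 and 123 CPM. Calls on the genes that split, KRT19 and MUC5AC among them, rest on 2 of 3 empty vector libraries. The part of their transcripts in the other results was not tested. Setting ΔTFR4 against empty vector 3 as the only control left 43 calls, all of them among the 4489 of the whole comparison, and the group then had 1 library, so no list count from that setting is given. List medians from it are given below where they lay over 1.5 times from a median printed here, and for 4 other lists.

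**Figure D1:**
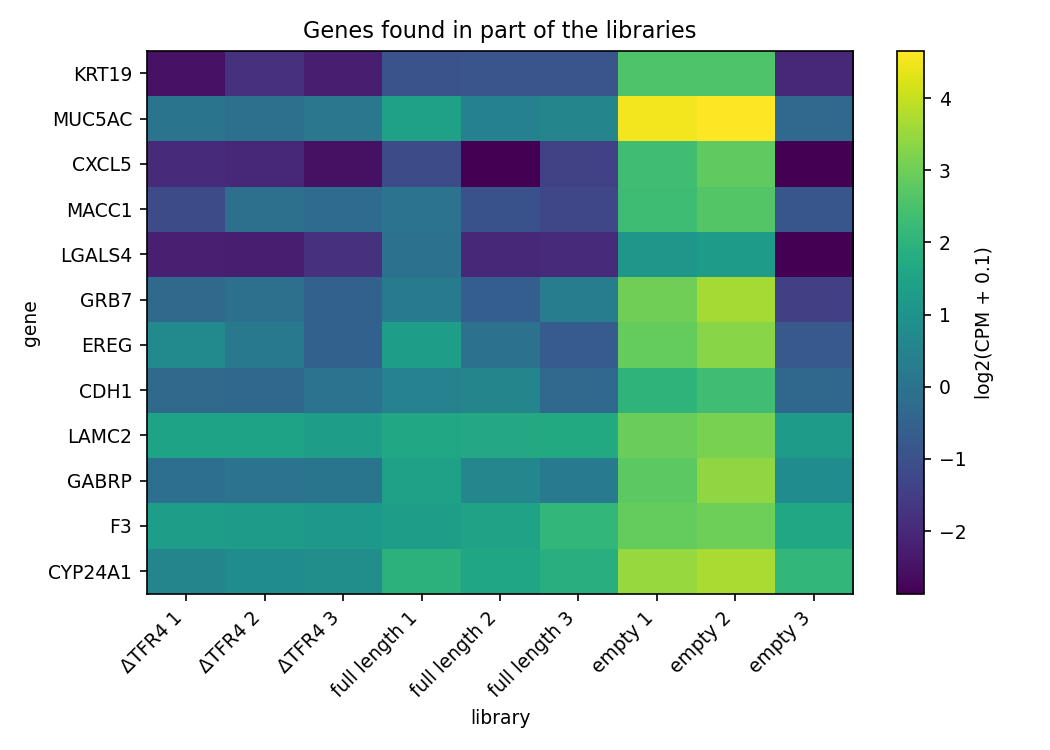
Level of 12 genes (rows, log2 of CPM + 0.1, colour scale) in the 9 libraries of the ΔTFR4, full-length and empty vector groups (columns). Empty vector libraries 1 and 2 stand above all others for each gene, and empty vector library 3 does not.

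Reads assigned to the SLNCR gene were found in every library. LINC00511 (chr17:72290091-72640472 in GRCh38, minus strand, a noncoding transcript in GENCODE 29) measured 515, 498 and 444 CPM in the ΔTFR4 libraries, against 30.1, 29.1 and 27.9 CPM in the empty vector libraries, a log2 fold change of 4.06 ± 0.30 (SE; edgeR adjusted p = 1.43e-05). The lowest ΔTFR4 library lay far above the highest empty vector library. Full-length libraries held 728, 658 and 334 CPM, and ΔTFR4 differed from them by -0.24 ± 0.26 (SE; edgeR adjusted p = 0.618), a difference within the spread of the libraries. Reads from the plasmid and from the chromosomal gene were not told apart by these counts. MMP9, a gelatinase linked to SLNCR, was below the filter with 8 counts over the ΔTFR4 libraries and 4 over the empty vector libraries. POU4F1, a neural transcription factor linked to SLNCR, measured 4.06, 3.55 and 2.97 CPM in ΔTFR4, against 3.02, 3.53 and 4.62 CPM in the empty vector, and was not called (edgeR adjusted p = 0.851). LINC00673 was not found under that symbol.

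Of 18763 genes tested, 4489 were called (23.9%), 2342 of them higher in ΔTFR4 (12.5%) and 2147 lower (11.4%). The median log2 fold change was 0.02 over all tested genes, and 1051 called genes rose and 741 fell by at least 1. Groups did not overlap for 10639 genes (56.7%), and 18 called genes had overlapping groups. The largest rises and falls named below were picked among genes whose groups did not overlap, so for them that separation is no separate result. For the other called genes below, separation adds little to the call, since nearly all called genes had it. Among genes that code for no protein, 492 rose and 161 fell of 4307 tested, whereas among coding genes 1823 rose and 1974 fell of 14097 tested. Leaving out any one of the 6 libraries left 2309 to 2914 calls, and fitting only the 2 groups gave 9081.

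**Figure D2:**
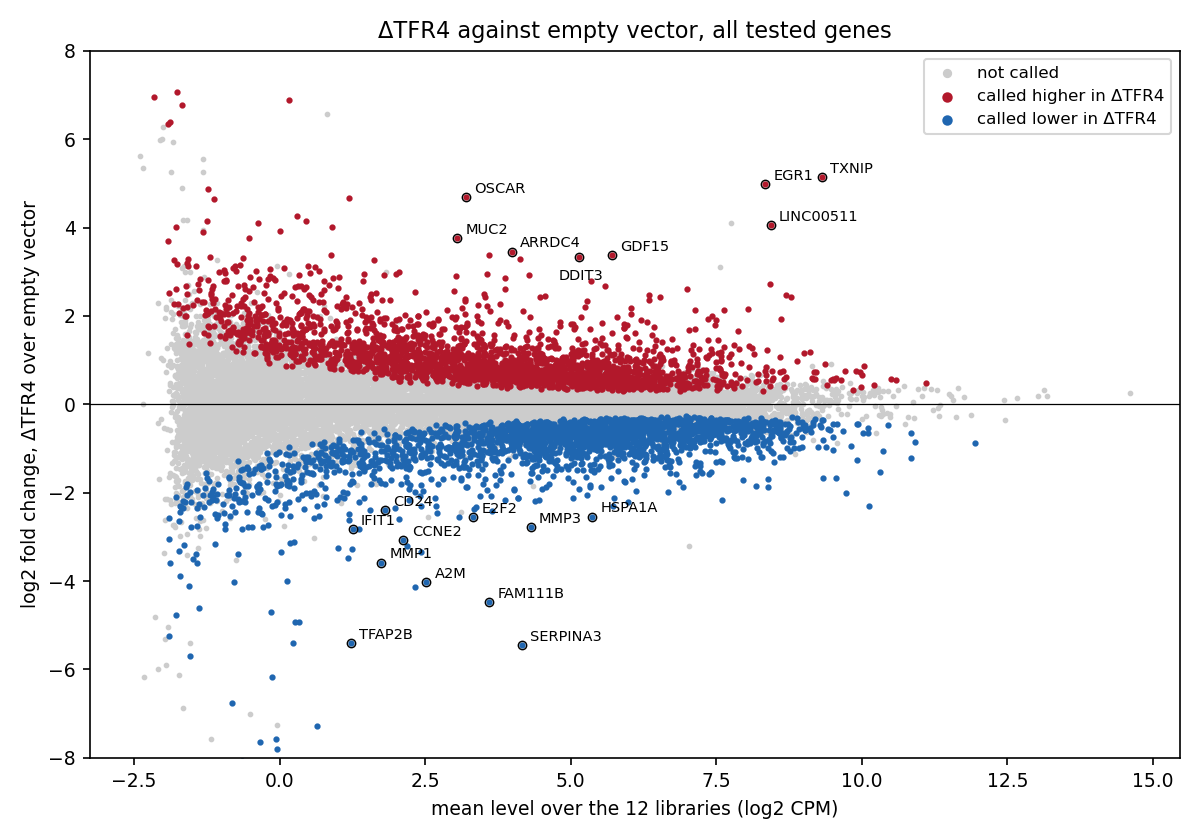
Log2 fold change of ΔTFR4 over empty vector (vertical axis) against the mean level over 12 libraries (horizontal axis, log2 CPM) for all tested genes, with called genes in red (2342 higher) and blue (2147 lower). TXNIP, EGR1 and LINC00511 stand out among abundant genes that rose, and SERPINA3 among those that fell; 6 genes lie beyond the axis limits of 8.

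TXNIP, which binds thioredoxin and restrains glucose uptake, was the gene with the highest rise of those the naming rule reached. It measured 1287, 1307 and 978 CPM in the ΔTFR4 libraries, against 36.4, 39.5 and 24.7 CPM in the empty vector libraries, a log2 fold change of 5.15 ± 0.83 (SE; edgeR adjusted p = 0.00275). Every ΔTFR4 library was far above every empty vector library. ARRDC4, its arrestin-domain relative that is induced by glucose, measured 30.5, 32.7 and 21.1 CPM in ΔTFR4, against 2.96, 2.54 and 2.16 CPM in the empty vector (log2 fold change 3.46 ± 0.58, edgeR adjusted p = 0.00208). ARRDC3, another relative, measured 106, 102 and 91.6 CPM in ΔTFR4, against 39.4, 39.8 and 34.3 CPM in the empty vector (log2 fold change 1.40 ± 0.42, edgeR adjusted p = 0.0299). For both genes the groups did not overlap, though ARRDC3 missed the threshold whichever library was left out (edgeR adjusted p 0.0572 to 0.0995). Of the 8 tested genes of this family and its regulators, 3 rose, 0 fell and 5 were not called, with a median log2 fold change of 0.53, or 0.89 against empty vector 3 alone. The share called was 37.5%, against 23.9% over all genes. ARRDC1, ARRDC2 and the factors MLXIP, MLXIPL and MLX, which read glucose metabolites, were not called, at 0.23, 0.59, 0.14, 0.47 and -0.16. Full-length libraries had 1087, 663 and 84.6 CPM of TXNIP, the third nearest to the empty vector, and ΔTFR4 was not called against them (0.96 ± 0.70, edgeR adjusted p = 0.443).

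The TXNIP promoter is shown because this gene rose most of those the naming rule reached and its window carries the paired E-box that MLX factors are known to bind. The window runs from 250 bases before to 50 bases after the gene's start (RefSeq, GRCh38.p14, chr1:145996530-145996829, minus strand). Capitals mark the match to the paired E-box (CACGNG, then 5 bases of any kind, then CACGNG), searched on both strands, which lies 88 bases before the start.
TXNIP: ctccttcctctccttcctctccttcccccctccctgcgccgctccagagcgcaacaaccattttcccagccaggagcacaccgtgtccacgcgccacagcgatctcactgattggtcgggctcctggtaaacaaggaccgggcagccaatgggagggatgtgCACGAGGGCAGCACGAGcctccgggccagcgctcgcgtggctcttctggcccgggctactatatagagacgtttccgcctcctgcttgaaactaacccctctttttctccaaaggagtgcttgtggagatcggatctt
This motif occurred in 20 of 27305 RefSeq windows of the same length (0.0732%), and in 1 of the 8 windows of the family's tested genes.

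Immediate-early genes are switched on within minutes of growth factor or stress signals, and EGR1, the AP-1 factors and MYC belong to them. EGR1 measured 643, 663 and 836 CPM in the ΔTFR4 libraries, against 23.6, 25.8 and 18.3 CPM in the empty vector libraries (log2 fold change 4.98 ± 1.12, edgeR adjusted p = 0.0121). The ΔTFR4 libraries lay well clear of the empty vector libraries. EGR1 missed the threshold without empty vector 3 (edgeR adjusted p = 0.0577). The spread behind that value includes the full-length libraries, whose EGR1 levels are given below. EGR3 measured 2.82, 2.95 and 4.94 CPM in ΔTFR4, against 1.37, 1.80 and 1.63 CPM in the empty vector (log2 fold change 1.16 ± 0.35, edgeR adjusted p = 0.0306). EGR2 measured 1.27, 1.13 and 1.75 CPM in ΔTFR4, against 0.56, 0.529 and 0.189 CPM in the empty vector (log2 fold change 1.68 ± 0.56, edgeR adjusted p = 0.0434). EGR2 missed the threshold whichever library was left out, and EGR3 in every such fit but the one without ΔTFR4 1, so that none of the EGR genes was called without empty vector 3. EGR4 and the corepressors NAB1 and NAB2 were not called, at 1.36, 0.15 and 0.29. Against full length, EGR1 differed by 1.11 ± 0.95 (edgeR adjusted p = 0.517), where the full-length libraries held 387, 560.3 and 43.4 CPM.

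The EGR1 promoter is shown because of the size of its rise and because its window carries CArG boxes, which serum response factor is known to bind. Its RefSeq window is chr5:138465229-138465528, plus strand in GRCh38.p14, and capitals mark 2 matches to the CArG box, the first of them 105 bases before the start.
EGR1: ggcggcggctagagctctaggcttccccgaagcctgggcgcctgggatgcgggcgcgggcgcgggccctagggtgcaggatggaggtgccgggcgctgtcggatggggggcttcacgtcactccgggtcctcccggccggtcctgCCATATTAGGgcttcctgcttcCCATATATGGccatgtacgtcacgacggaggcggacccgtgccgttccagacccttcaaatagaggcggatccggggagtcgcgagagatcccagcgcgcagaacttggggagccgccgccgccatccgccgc
A CArG box, searched on both strands, lay in 351 of 27305 windows (1.29%), in 1 of 5 EGR and NAB windows and in 1 of 21 windows of other immediate-early genes.

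AP-1 is a family of paired leucine zipper factors. Of 12 AP-1 genes tested, 8 rose, 1 fell and 3 were not called, with a median log2 fold change of 0.87, against 0.02 over all genes. JUN measured 205, 220.2 and 194 CPM in ΔTFR4, against 33.1, 32.3 and 36.1 CPM in the empty vector (log2 fold change 2.61 ± 0.59, edgeR adjusted p = 0.0104). ATF3, a stress-induced partner, measured 105, 97.0 and 104 CPM in ΔTFR4, against 24.0, 27.9 and 22.4 CPM in the empty vector (log2 fold change 2.04 ± 0.38, edgeR adjusted p = 0.00298). MAFF, a small MAF factor, measured 80.6, 77.0 and 57.3 CPM in ΔTFR4, against 24.1, 17.9 and 17.9 CPM in the empty vector (log2 fold change 1.84 ± 0.33, edgeR adjusted p = 0.00242). None of these groups overlapped. JUND, JUNB, MAFK, FOSL1 and MAFG rose by 1.15, 1.28, 0.98, 0.76 and 0.48. BATF3 fell, at -0.93. With 1 library left out, 4 to 6 members rose, 4 without empty vector 1 or 2, and JUNB, MAFK, FOSL1, MAFG and BATF3 were each lost in at least 1 such fit. Against empty vector 3 alone the median was 0.80.

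Of 27 other immediate-early genes, 10 rose, 5 fell and 12 were not called, with a median of 0.47. PPP1R15A, which restarts translation after stress, measured 655, 662 and 631 CPM in ΔTFR4, against 132, 120.1 and 108 CPM in the empty vector (log2 fold change 2.43 ± 0.45, edgeR adjusted p = 0.00311). MYC, a growth-promoting transcription factor, measured 288, 276 and 249 CPM in ΔTFR4, against 77.3, 73.8 and 64.1 CPM in the empty vector (log2 fold change 1.92 ± 0.39, edgeR adjusted p = 0.00502). HES1, a Notch-responsive repressor, measured 1.70, 2.42 and 2.97 CPM in ΔTFR4, against 6.69, 6.03 and 7.98 CPM in the empty vector (log2 fold change -1.54 ± 0.27, edgeR adjusted p = 0.00241). MYC and PPP1R15A were high and HES1 low in every ΔTFR4 library. BTG2 rose by 1.58 and ID2 fell, at -1.76. The counts were 3 to 7 higher and 2 to 4 lower with 1 library left out, with 3 rises without empty vector 2 and 2 falls without ΔTFR4 2 or empty vector 3. A375 carries mutant BRAF, so its MAPK pathway is active at rest. Of 24 genes of MAPK feedback and output, 9 rose, 2 fell and 13 were not called, with a median of 0.39. DUSP1, a MAPK phosphatase, measured 111, 88.8 and 74.6 CPM in ΔTFR4, against 26.7, 21.3 and 21.7 CPM in the empty vector (log2 fold change 1.97 ± 0.28, edgeR adjusted p = 0.000937). DUSP8, a JNK and p38 phosphatase, measured 16.9, 16.7 and 13.1 CPM in ΔTFR4, against 1.96, 2.40 and 1.89 CPM in the empty vector (log2 fold change 2.90 ± 0.42, edgeR adjusted p = 0.000948). PHLDA1 and SPRED3 rose by 0.86 and 1.23, and CCND1, the G1 cyclin, fell, at -0.74. Neither phosphatase showed any overlap between groups. With 1 library left out, 6 to 8 of these genes rose, the fewest without ΔTFR4 2 or empty vector 3, and 1 fell in each such fit.

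**Figure D3:**
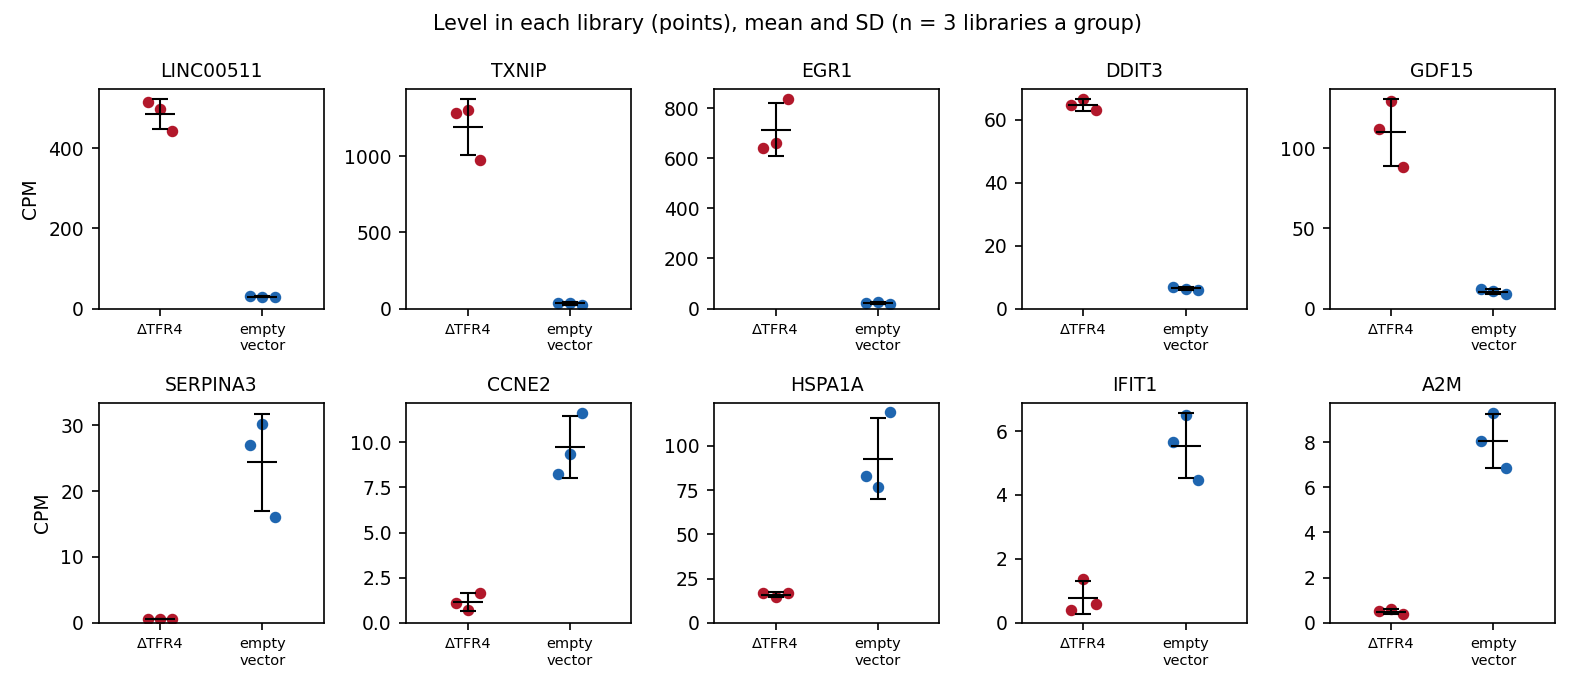
Level (CPM, vertical axes from 0) of 10 genes in each ΔTFR4 library (red points) and each empty vector library (blue points), with mean and SD (black, n = 3). The groups do not overlap for any of the 10 genes, a condition that these genes were picked by.

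The integrated stress response slows translation and raises ATF4 protein, whose target genes serve amino acid supply and, when stress lasts, cell death. Of 21 genes tested, 14 rose, 0 fell and 7 were not called, with a median log2 fold change of 1.07. DDIT3, the death-promoting factor CHOP, measured 64.7, 66.7 and 63.0 CPM in the ΔTFR4 libraries, against 6.97, 6.35 and 5.94 CPM in the empty vector libraries (log2 fold change 3.33 ± 0.48, edgeR adjusted p = 0.00101). NUPR1, a stress-induced chromatin protein, measured 76.6, 67.1 and 73.5 CPM in ΔTFR4, against 13.9, 12.7 and 16.6 CPM in the empty vector (log2 fold change 2.33 ± 0.35, edgeR adjusted p = 0.00115). TRIB3, a pseudokinase induced by CHOP, measured 558, 592 and 516 CPM in ΔTFR4, against 185, 129 and 125 CPM in the empty vector (log2 fold change 1.92 ± 0.33, edgeR adjusted p = 0.00209). The groups were far apart for all of these. STC2, a secreted glycoprotein, and SESN2, an inhibitor of mTORC1, rose by 2.18 and 2.14. ATF4 itself was not called at the RNA level (0.17), nor were the serine synthesis gene PSAT1 (0.06) and SHMT2 (0.21). Leaving out 1 library left 12 to 13 rises, and the median against empty vector 3 alone was 1.41. NUPR1 was also higher than in the full-length group (1.39 ± 0.34, edgeR adjusted p = 0.0378), and it was the 1 member called there. INHBE, an inhibin subunit of the liver, measured 31.3, 34.4 and 35.4 CPM in ΔTFR4, against 4.54, 3.24 and 2.42 CPM in the empty vector (log2 fold change 3.30 ± 0.50, edgeR adjusted p = 0.00129). ASNSP1, a pseudogene of ASNS that may share its reads, rose by 3.00.

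The ASNS promoter is shown because asparagine synthetase is a standard target of this response and its window carries the C/EBP-ATF element. Its RefSeq window is chr7:97872359-97872658, minus strand in GRCh38.p14, and capitals mark the match to TGATGNAA, searched on both strands, 68 bases before the start.
ASNS: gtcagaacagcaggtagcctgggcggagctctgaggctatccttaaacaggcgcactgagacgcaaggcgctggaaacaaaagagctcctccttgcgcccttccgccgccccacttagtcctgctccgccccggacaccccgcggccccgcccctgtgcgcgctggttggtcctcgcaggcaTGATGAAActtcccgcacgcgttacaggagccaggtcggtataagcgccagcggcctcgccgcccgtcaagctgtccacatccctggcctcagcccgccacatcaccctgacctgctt
The element lay in 4 of 17 windows of tested members (23.5%), those of ASNS, CHAC1, SLC3A2 and ATF3, all 4 called higher, and in 1003 of 27305 windows (3.67%).

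The unfolded protein response answers misfolded protein in the endoplasmic reticulum, and its genes split. Of 18 tested, 6 rose, 4 fell and 8 were not called, with a median of 0.07. ERN1, the sensor IRE1, measured 72.3, 79.7 and 64.5 CPM in ΔTFR4, against 11.8, 8.78 and 10.7 CPM in the empty vector (log2 fold change 2.79 ± 0.42, edgeR adjusted p = 0.00118). XBP1, the factor it splices, and HERPUD1, which serves degradation, rose by 0.88 and 0.76. CALR, a lumenal chaperone, measured 538, 466 and 521 CPM in ΔTFR4, against 851, 847 and 985 CPM in the empty vector (log2 fold change -0.81 ± 0.17, edgeR adjusted p = 0.00544). PDIA4, a disulfide isomerase, fell, at -0.60. So the sensor was high in every ΔTFR4 library while the chaperone was low. With 1 library left out, 3 to 5 rose and 2 to 4 fell; 3 rose without ΔTFR4 1, ΔTFR4 2, empty vector 2 or empty vector 3, and 2 fell without ΔTFR4 2, ΔTFR4 3 or empty vector 3.

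Of 25 p53 targets, 15 rose, 0 fell and 10 were not called, with a median log2 fold change of 0.73. GDF15, a secreted stress cytokine, measured 112, 129.7 and 88.0 CPM in the ΔTFR4 libraries, against 11.9, 11 and 8.78 CPM in the empty vector libraries (log2 fold change 3.38 ± 0.43, edgeR adjusted p = 0.000625). GADD45A, a growth arrest protein, measured 169.5, 163 and 134 CPM in ΔTFR4, against 27.3, 31.2 and 28.6 CPM in the empty vector (log2 fold change 2.42 ± 0.45, edgeR adjusted p = 0.00324). TNFRSF10B, the TRAIL death receptor, measured 289, 302 and 262 CPM in ΔTFR4, against 129, 113 and 107 CPM in the empty vector (log2 fold change 1.29 ± 0.21, edgeR adjusted p = 0.00169). In each case the lowest ΔTFR4 library was above the highest empty vector library. SESN2, BTG2, GADD45A and TNFRSF10B are induced by other stresses as well as by p53. When each library was left out in turn, 9 to 12 rose, 9 of them without ΔTFR4 2 or empty vector 2. Of 7 CDK inhibitors, 2 rose, 2 fell and 3 were not called. CDKN1A rose by 0.84 (edgeR adjusted p = 0.0103) and CDKN2A, the p16 gene, by 1.26, and CDKN2C and CDKN3 fell, at -0.98 and -0.71. CDKN1A was lost without ΔTFR4 2 (edgeR adjusted p = 0.0517), CDKN2A whichever library was left out, and CDKN3 without ΔTFR4 2 or 3 or empty vector 2 or 3. Of 15 BCL2 family genes, 5 rose, 0 fell and 10 were not called, with a median of -0.10, or -0.04 against empty vector 3 alone. The share called was 33.3%, against 23.9% over all genes. The death-promoting BH3 genes BBC3, PMAIP1 and HRK rose by 1.31, 0.88 and 1.08, and the survival genes MCL1 and BCL2L2 by 0.75 and 0.62. Between 1 and 4 of these 5 were called with 1 library left out, 1 of them without empty vector 2.

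Genes of DNA replication are driven by E2F factors at the G1 to S transition. Of 26 tested, 0 rose, 25 fell and 1 was not called (CDT1, -1.09), with a median log2 fold change of -1.29. RRM2, the regulated subunit of ribonucleotide reductase, measured 82.5, 63.3 and 74.9 CPM in the ΔTFR4 libraries, against 335, 317 and 336 CPM in the empty vector libraries (log2 fold change -2.16 ± 0.25, edgeR adjusted p = 0.000346). GINS1, part of the replicative helicase, measured 16.8, 14.1 and 18.1 CPM in ΔTFR4, against 67.6, 66.7 and 68.8 CPM in the empty vector (log2 fold change -2.05 ± 0.27, edgeR adjusted p = 0.000678). CDC6, which loads that helicase, measured 22.2, 17.8 and 29.1 CPM in ΔTFR4, against 102, 99.7 and 99.1 CPM in the empty vector (log2 fold change -2.12 ± 0.30, edgeR adjusted p = 0.00089). All 3 were low in every ΔTFR4 library. RFC3, a clamp loader subunit, fell, at -0.89. CCNE2, the S phase cyclin, measured 1.08, 0.718 and 1.67 CPM in ΔTFR4, against 8.25, 9.34 and 11.6 CPM in the empty vector (log2 fold change -3.07 ± 0.63, edgeR adjusted p = 0.00496). E2F2, an activating E2F, measured 3.01, 2.76 and 4.35 CPM in ΔTFR4, against 19.0, 20.6 and 20.1 CPM in the empty vector (log2 fold change -2.56 ± 0.46, edgeR adjusted p = 0.00262). FAM111B, a protease of replicating cells, measured 1.51, 0.793 and 1.60 CPM in ΔTFR4, against 26.7, 27.6 and 32.8 CPM in the empty vector (log2 fold change -4.48 ± 1.04, edgeR adjusted p = 0.0125). None of these 3 overlapped, and FAM111B missed the threshold without ΔTFR4 2 (edgeR adjusted p = 0.0605). Leaving out 1 library left 22 to 24 falls, and the median against empty vector 3 alone was -1.35.

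The PCNA promoter is shown because the sliding clamp is a well-known E2F target, lower here by a log2 fold change of -2.0. Its RefSeq window is chr20:5126573-5126872, minus strand in GRCh38.p14. Capitals mark the match to an E2F site, searched on both strands as TTTGGCGC, TTTCCCGC, TTTCGCGC or TTTGCCGC, 59 bases before the start.
PCNA: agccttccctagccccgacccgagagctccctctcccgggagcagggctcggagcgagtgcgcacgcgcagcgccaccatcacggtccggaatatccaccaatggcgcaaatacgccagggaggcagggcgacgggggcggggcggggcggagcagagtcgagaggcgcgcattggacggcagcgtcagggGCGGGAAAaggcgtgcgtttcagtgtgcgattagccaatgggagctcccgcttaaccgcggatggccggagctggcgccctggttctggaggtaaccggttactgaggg
An E2F site lay in 15 of 22 windows of tested replication genes (68.2%), in 2 of 17 windows of mitotic genes (11.8%) and in 908 of 27305 windows (3.33%). Of the 15 replication genes with a match, 14 fell and CDT1 was not called.

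Of 22 genes of G2 and mitosis, 0 rose, 20 fell and 2 were not called, with a median of -1.09. CCNA2, the S and G2 cyclin, measured 41.1, 37.4 and 37.0 CPM in ΔTFR4, against 118, 119 and 114 CPM in the empty vector (log2 fold change -1.61 ± 0.26, edgeR adjusted p = 0.00175). MKI67, the proliferation marker Ki-67, measured 220.0, 250.3 and 278 CPM in ΔTFR4, against 576, 574 and 548 CPM in the empty vector (log2 fold change -1.18 ± 0.20, edgeR adjusted p = 0.00199). BUB1B, a spindle checkpoint kinase, measured 44.3, 40.4 and 38.2 CPM in ΔTFR4, against 90.3, 87.7 and 88.5 CPM in the empty vector (log2 fold change -1.12 ± 0.16, edgeR adjusted p = 0.00089). The 3 ΔTFR4 libraries were low for each. TPX2 and TTK, which build and police the spindle, fell, at -0.88 and -1.14. Leaving out 1 library left 18 to 19 falls. Against the full-length group, 7 replication genes and 7 mitotic genes were also lower, among them RRM2 (-1.79 ± 0.24, edgeR adjusted p = 0.00317) and TPX2 (-0.81 ± 0.14, edgeR adjusted p = 0.00853). In that comparison 4.36% of all tested genes were called. Of 63 replication-dependent histone genes, which are near-identical copies whose reads may be split, 2 rose, 8 fell and 53 were not called, a share of 15.9% called against 23.9% over all genes. HIST1H3A, HIST1H1A, HIST1H2BO and HIST1H1B fell, at -1.15, -1.68, -1.05 and -1.87, and the pseudogene HIST2H3DP1 rose by 1.33. Between 2 and 5 histone genes fell with 1 library left out, 2 of them without ΔTFR4 1, 2 or 3 or empty vector 3. At most 1 histone gene rose in those fits, and HIST2H3DP1 was called only without empty vector 3.

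Heat shock genes encode chaperones of the cytosol, raised by the factor HSF1. Of 14 tested, 0 rose, 11 fell and 3 were not called, with a median log2 fold change of -1.24. HSP90AA1, the inducible HSP90, measured 458, 367 and 423 CPM in the ΔTFR4 libraries, against 1662, 1611 and 1716 CPM in the empty vector libraries (log2 fold change -2.0 ± 0.27, edgeR adjusted p = 0.000728). HSPA8, the constitutive HSC70, measured 518, 404 and 462 CPM in ΔTFR4, against 2137, 2043 and 2621 CPM in the empty vector (log2 fold change -2.30 ± 0.48, edgeR adjusted p = 0.00593). HSPA1A, the inducible HSP70, measured 16.7, 14.5 and 16.6 CPM in ΔTFR4, against 82.8, 76.7 and 119 CPM in the empty vector (log2 fold change -2.54 ± 0.59, edgeR adjusted p = 0.0116). Each was low in all 3 ΔTFR4 libraries. HSPA1A and HSPA1B are near-identical, so the split of reads between them is uncertain, and HSPA1A was lost without ΔTFR4 2 (edgeR adjusted p = 0.0522). HSPH1, HSP90AB1 and HSPE1 fell, at -1.32, -0.84 and -1.38. In fits that left out 1 library, 5 to 9 fell, 5 of them without ΔTFR4 2. The median against empty vector 3 alone was -1.38. HSP90AA1 was also lower than in the full-length group (-0.99 ± 0.26, edgeR adjusted p = 0.0488).

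The HSPA8 promoter is shown because of the level of this gene and the heat shock elements in its window. Its RefSeq window is chr11:123062087-123062386, minus strand in GRCh38.p14, and capitals mark 2 matches to the heat shock element (GAA, 2 bases of any kind, TTC, 2 bases of any kind, GAA), searched on both strands, the first of them 230 bases before the start.
HSPA8: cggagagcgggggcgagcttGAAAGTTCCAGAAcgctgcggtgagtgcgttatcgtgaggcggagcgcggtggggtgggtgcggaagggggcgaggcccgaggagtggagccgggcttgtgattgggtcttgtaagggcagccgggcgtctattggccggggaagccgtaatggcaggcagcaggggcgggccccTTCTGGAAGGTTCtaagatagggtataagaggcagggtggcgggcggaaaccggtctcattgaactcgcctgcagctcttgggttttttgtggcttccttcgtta
This element lay in 2 of 14 windows of tested heat shock genes (14.3%), those of HSPA8 and DNAJA1, and in 133 of 27305 windows (0.487%).

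**Figure D4:**
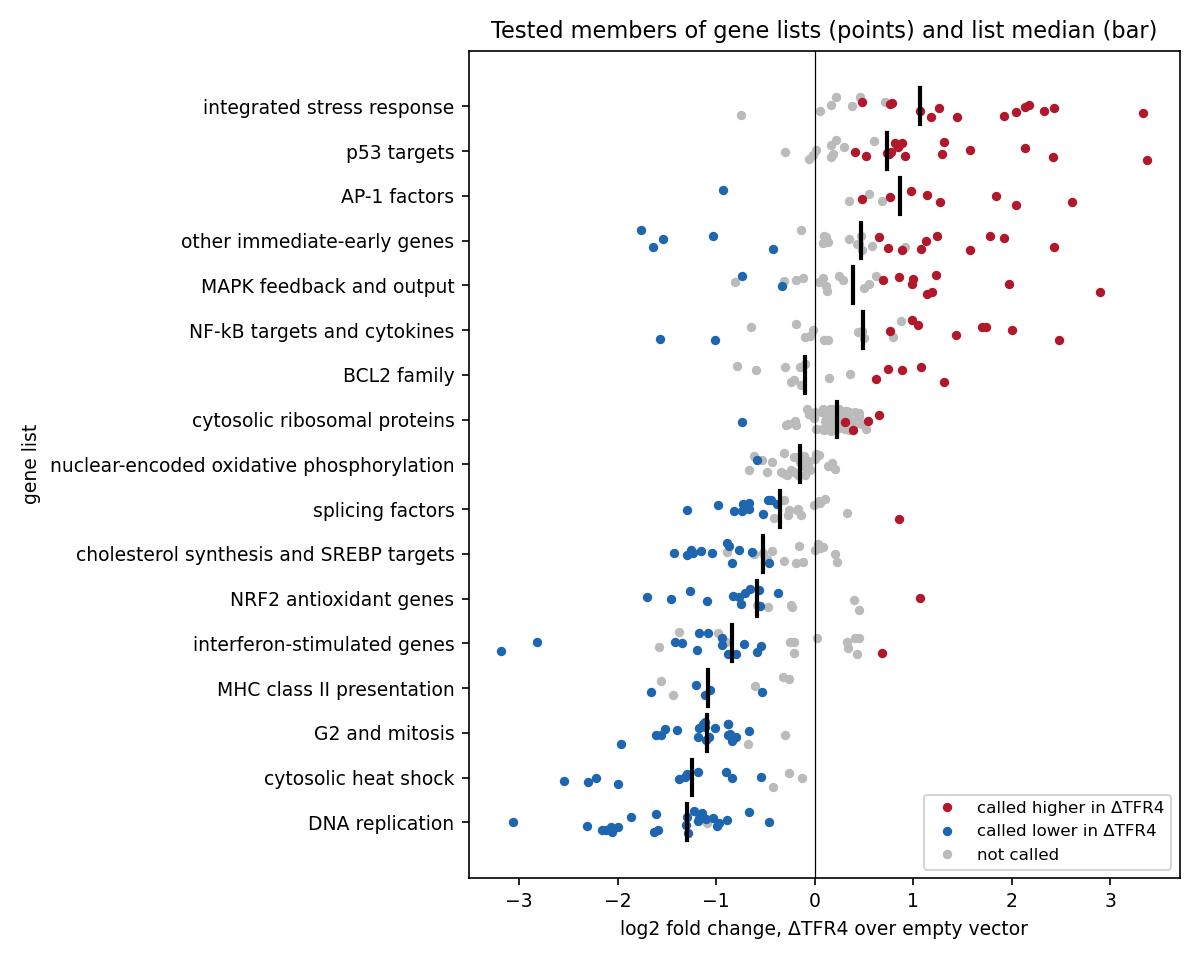
Log2 fold change of ΔTFR4 over empty vector (horizontal axis) of the tested members of 17 gene lists (rows), red where called higher, blue where called lower and grey where not called, with the list median as a black bar. Medians run from 1.07 for the integrated stress response to -1.29 for DNA replication, and no member of the replication, mitosis, heat shock or MHC class II lists lies above 0.

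Interferon-stimulated genes hold the antiviral programme that interferons switch on in many cell types. Of 28 tested, 1 rose, 14 fell and 13 were not called, with a median log2 fold change of -0.84. OAS3, a sensor of double-stranded RNA, measured 56.7, 56.7 and 67.0 CPM in ΔTFR4, against 158, 163 and 161 CPM in the empty vector (log2 fold change -1.42 ± 0.23, edgeR adjusted p = 0.0017). IFIT1, which binds foreign RNA caps, measured 0.386, 1.36 and 0.595 CPM in ΔTFR4, against 5.67, 6.49 and 4.46 CPM in the empty vector (log2 fold change -2.82 ± 0.58, edgeR adjusted p = 0.00499). The groups did not overlap for OAS3 or IFIT1. OAS2 and OASL fell, at -0.94 and -1.34, and the median against empty vector 3 alone was smaller, at -0.36. Without 1 library at a time, 10 to 13 members fell, and the 1 rise, ISG20 at 0.68, was lost without empty vector 2. Of 10 MHC class II genes, which present antigen to helper T cells and are often seen in melanoma cells, 0 rose, 5 fell and 5 were not called, with a median of -1.08. CIITA, their master activator, measured 4.60, 6.04 and 6.06 CPM in ΔTFR4, against 10.5, 12.9 and 11.4 CPM in the empty vector (log2 fold change -1.06 ± 0.22, edgeR adjusted p = 0.00559). HLA-DRA measured 5.14, 3.36 and 4.13 CPM in ΔTFR4, against 10.6, 7.90 and 10.5 CPM in the empty vector (log2 fold change -1.20 ± 0.21, edgeR adjusted p = 0.00207). CIITA was low in all ΔTFR4 libraries, and so was HLA-DRA. HLA-DPA1, HLA-DRB1 and HLA-DQB1 fell, at -0.54, -1.11 and -1.66, and each was lost in at least 5 of the 6 fits with 1 library left out. Of the class II genes, 2 to 3 fell in those fits, the fewest without ΔTFR4 2, ΔTFR4 3, empty vector 1 or empty vector 3. Of 14 MHC class I genes, 4 rose, 1 fell and 9 were not called, with HLA-B and HLA-E among those up, by 0.66 and 0.54. The share of class I genes called was 35.7%, against 23.9% over all genes. ERAP1 rose by 0.31 and ERAP2 fell, at -0.47, and both lost the call whichever library was left out. HLA genes resemble each other and vary between people, so their counts are uncertain, and 1 or 2 class I genes rose with 1 library left out, 2 of them without ΔTFR4 2. HLA-B was also higher than in the full-length group (0.85 ± 0.15, edgeR adjusted p = 0.012).

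The IFIT1 promoter is shown because this gene is among the named falls and its window carries the element that interferon factors are known to bind. Its RefSeq window is chr10:89392373-89392672, plus strand in GRCh38.p14, and capitals mark 2 matches to the interferon-stimulated response element (GAAA, 2 bases of any kind, GAAA), searched on both strands, the first of them 116 bases before the start.
IFIT1: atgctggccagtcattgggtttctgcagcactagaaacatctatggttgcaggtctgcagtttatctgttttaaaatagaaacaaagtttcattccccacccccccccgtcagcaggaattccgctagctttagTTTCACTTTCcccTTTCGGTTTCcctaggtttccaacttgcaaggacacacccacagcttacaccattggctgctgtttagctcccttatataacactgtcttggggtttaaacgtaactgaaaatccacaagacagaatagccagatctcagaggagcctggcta
The element lay in 14 of 21 windows of tested members (66.7%) and in 996 of 27305 windows (3.65%). Matches lay in 8 of 10 windows of called members, among them that of ISG20, which rose, and in 6 of 11 windows of members not called. Not every tested member had a window.

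Of 22 NF-kB targets and cytokines, 8 rose, 2 fell and 12 were not called, with a median of 0.49. IL24, an interleukin made by melanoma cells, measured 764, 885 and 550.1 CPM in ΔTFR4, against 148, 121 and 124 CPM in the empty vector (log2 fold change 2.48 ± 0.56, edgeR adjusted p = 0.00965). CXCL2, a neutrophil chemokine, measured 7.61, 8.57 and 8.33 CPM in ΔTFR4, against 2.09, 2.29 and 1.74 CPM in the empty vector (log2 fold change 2.00 ± 0.42, edgeR adjusted p = 0.00518). CXCL1, its close relative, measured 10.6, 10.5 and 9.63 CPM in ΔTFR4, against 19.5, 21.0 and 21.5 CPM in the empty vector (log2 fold change -1.01 ± 0.17, edgeR adjusted p = 0.00179). These related chemokines therefore moved in opposite directions, with no overlap of groups for either. RELB rose by 1.05 and CCL5 fell, at -1.56. Between 2 and 5 members rose with 1 library left out, 2 of them without ΔTFR4 2 or empty vector 2. Outside the list, TSLP, an alarmin cytokine, rose by 2.96.

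Of 19 NRF2 targets, which defend against oxidants, 1 rose, 12 fell and 6 were not called, with a median of -0.58. NQO1, a quinone reductase, measured 68.1, 65.4 and 63.0 CPM in ΔTFR4, against 162, 152 and 159.5 CPM in the empty vector (log2 fold change -1.27 ± 0.16, edgeR adjusted p = 0.000565). TXNRD1, thioredoxin reductase, measured 256, 232 and 250.1 CPM in ΔTFR4, against 535, 517 and 527 CPM in the empty vector (log2 fold change -1.09 ± 0.16, edgeR adjusted p = 0.000951). GCLM, a subunit of the glutathione-making ligase, measured 21.7, 17.1 and 18.0 CPM in ΔTFR4, against 49.9, 49.8 and 56.0 CPM in the empty vector (log2 fold change -1.46 ± 0.24, edgeR adjusted p = 0.00179). All ΔTFR4 libraries were low for the 3 genes. GSR, which recycles glutathione, fell, at -0.75, and the member that rose was SLC7A11, the cystine carrier also counted in the integrated stress response, by 1.07, a call lost without empty vector 3. Omitting each library in turn, 7 to 10 fell, 7 of them without ΔTFR4 2 or empty vector 3. The motif TGACNNNGC lay in 3 of 14 windows of members, those of GCLM, TXNRD1 and ME1, and in 13.6% of all windows. Of 27 genes of cholesterol synthesis and SREBP control, 0 rose, 12 fell and 15 were not called, with a median of -0.52. EBP, a sterol isomerase, measured 30.8, 26.3 and 26.8 CPM in ΔTFR4, against 62.6, 66.9 and 68.0 CPM in the empty vector (log2 fold change -1.23 ± 0.16, edgeR adjusted p = 0.000678). IDI1, HSD17B7, HMGCS1 and SQLE, all enzymes of the pathway, fell, at -1.16, -1.43, -0.89 and -0.77. EBP was low in every ΔTFR4 library, and 7 to 11 members fell with 1 library left out, 7 of them without ΔTFR4 2. Of 31 genes of hypoxia and glycolysis, 5 rose, 10 fell and 16 were not called, with a median of -0.18. CA9, a carbonic anhydrase induced by hypoxia, rose by 1.83, while LDHA, PGAM1, PFKFB4 and SLC2A1, the glucose carrier, fell, at -0.98, -1.05, -1.16 and -0.81. Across fits without 1 library, 2 to 3 rose and 5 to 7 fell, with 2 rises without empty vector 1, 2 or 3 and 5 falls without ΔTFR4 2 or empty vector 3.

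SERPINA3, a secreted inhibitor of chymotrypsin-like proteases, fell most of the genes the naming rule reached. It measured 0.579, 0.567 and 0.52 CPM in the ΔTFR4 libraries, against 27.0, 30.2 and 16.1 CPM in the empty vector libraries (log2 fold change -5.45 ± 0.29, edgeR adjusted p = 1.42e-06). A2M, the broad protease trap alpha-2-macroglobulin, measured 0.502, 0.604 and 0.372 CPM in ΔTFR4, against 8.03, 9.27 and 6.85 CPM in the empty vector (log2 fold change -4.02 ± 0.31, edgeR adjusted p = 1.91e-05). For both genes every ΔTFR4 library lay far below the lowest empty vector library. Of 16 protease inhibitors and plasminogen genes tested, 0 rose, 5 fell and 11 were not called, with a median of -0.28. That is a share of 31.2% called, against 23.9% over all genes. SERPINE2, SERPINF1 and PLAT, the tissue plasminogen activator, fell, at -0.95, -1.02 and -0.96. Of 20 metalloproteases and their inhibitors, 1 rose, 5 fell and 14 were not called, with a median of -0.12, or -0.24 against empty vector 3 alone. The share called was 30%, against 23.9% over all genes. The rise was that of MMP14, a membrane-bound collagenase, by 0.49, and it was lost whichever library was left out. MMP1, interstitial collagenase, measured 0.888, 0.227 and 0.558 CPM in ΔTFR4, against 6.79, 6.06 and 7.26 CPM in the empty vector (log2 fold change -3.58 ± 0.61, edgeR adjusted p = 0.00206). MMP3, stromelysin, measured 6.37, 3.89 and 5.65 CPM in ΔTFR4, against 35.9, 29.1 and 44.6 CPM in the empty vector (log2 fold change -2.78 ± 0.52, edgeR adjusted p = 0.00331). Neither overlapped between groups. MMP13, TIMP3 and ADAM10 fell, at -3.15, -0.93 and -0.55, and MMP13 was lost without ΔTFR4 2 (edgeR adjusted p = 0.056). SERPINF1 was lost without ΔTFR4 1 or 2 or empty vector 1 or 2.

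Matrix and adhesion genes moved in both directions. Of 34 collagens, laminins and matrix glycoproteins, 8 rose, 7 fell and 19 were not called, with a median of 0.11, or 0.20 against empty vector 3 alone. THBS1, thrombospondin, measured 1188, 1032 and 1192 CPM in ΔTFR4, against 2619, 2643 and 2631 CPM in the empty vector (log2 fold change -1.21 ± 0.12, edgeR adjusted p = 0.000166). COL6A3, a chain of collagen VI, measured 6.76, 6.08 and 7.44 CPM in ΔTFR4, against 2.46, 2.36 and 2.42 CPM in the empty vector (log2 fold change 1.48 ± 0.20, edgeR adjusted p = 0.000837). BGN, the proteoglycan biglycan, measured 22.2, 22.2 and 19.4 CPM in ΔTFR4, against 1.99, 2.57 and 1.55 CPM in the empty vector (log2 fold change 3.38 ± 0.24, edgeR adjusted p = 1.03e-05). The groups were apart for all 3. FN1 and COL6A2 rose by 0.97 and 1.28, and NID2 fell, at -1.31. When each library was left out in turn, 5 or 6 members rose, 6 of them without ΔTFR4 1. Of 18 integrin subunits, 2 rose, 4 fell and 12 were not called, a share of 33.3% against 23.9% over all genes. ITGB3, the partner of the alpha v subunit, measured 5.64, 5.10 and 6.77 CPM in ΔTFR4, against 26.2, 25.9 and 23.8 CPM in the empty vector (log2 fold change -2.12 ± 0.17, edgeR adjusted p = 2.31e-05). ITGB4 and ITGA10 rose by 0.94 and 0.97, and ITGA4 and ITGA5 fell, at -0.74 and -0.45. ITGB3 was low in every ΔTFR4 library, and 2 integrin genes fell without ΔTFR4 1, ΔTFR4 2 or empty vector 1. Of 19 SRF and smooth muscle genes, 4 rose, 2 fell and 13 were not called, 31.6% called against 23.9% over all genes. ACTA2, smooth muscle actin, measured 29.4, 28.5 and 23.2 CPM in ΔTFR4, against 9.12, 7.79 and 10.3 CPM in the empty vector (log2 fold change 1.58 ± 0.21, edgeR adjusted p = 0.000689). FHL2 and MYL9 rose by 0.76 and 1.02, and SMTN and VCL fell, at -0.62 and -0.59. VCL was lost without ΔTFR4 2 (edgeR adjusted p = 0.0526), and 3 or 4 members of the list rose in the fits with 1 library left out. Of 20 YAP and TEAD targets, 6 rose, 2 fell and 12 were not called, with ARHGEF17, AXL, AJUBA and LATS2 up by 0.64, 0.55, 0.62 and 0.46. Of these targets 2 or 3 rose with 1 library left out, 3 of them without ΔTFR4 2, and 1 fell in each such fit. F3, tissue factor, fell, at -1.40, with empty vector 1 and 2 above empty vector 3.

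Of 13 melanocyte and pigment genes, 1 rose, 1 fell and 11 were not called, a share of 15.4% against 23.9% over all genes. TYRP1, a pigment enzyme, rose by 1.73, and SOX10, the neural crest factor, fell, at -0.41, with 61.6, 52.9 and 52.0 CPM in ΔTFR4 and 68.9, 75.1 and 77.9 CPM in the empty vector. TYRP1 was lost without empty vector 2 (edgeR adjusted p = 0.05003), and SOX10 without ΔTFR4 2 or 3 or empty vector 2 or 3. Of 22 genes of dedifferentiated melanoma and neural crest, 4 rose, 5 fell and 13 were not called. POU3F2, the factor BRN2 of invasive melanoma, measured 0.27, 0.227 and 0.0744 CPM in ΔTFR4, against 1.59, 1.97 and 1.59 CPM in the empty vector (log2 fold change -3.15 ± 0.45, edgeR adjusted p = 0.000948). NT5E, the adenosine-making CD73, measured 796, 717 and 685 CPM in ΔTFR4, against 342, 333 and 296 CPM in the empty vector (log2 fold change 1.18 ± 0.20, edgeR adjusted p = 0.00199). POU3F2 was low and NT5E high in every ΔTFR4 library, though few POU3F2 reads leave the size of its fold uncertain. NES and SNAI1 fell, at -1.41 and -0.91. In fits that left out 1 library, 2 members rose without ΔTFR4 2 or empty vector 3, and 2 fell without ΔTFR4 3. The calcium-binding markers S100A1 and S100B fell too, with S100A1 at 0.811, 0.718 and 1.12 CPM in ΔTFR4 and 2.40, 2.54 and 2.57 CPM in the empty vector. S100B had 1 count over the ΔTFR4 libraries and 25 over the empty vector libraries, too few for a reliable fold. Among other transcription factors, TFAP2B, an AP-2 factor, measured 0.0773, 0.0755 and 0.0372 CPM in ΔTFR4, against 3.17, 2.86 and 2.50 CPM in the empty vector (log2 fold change -5.40 ± 0.50, edgeR adjusted p = 8.1e-05). With so few TFAP2B reads in ΔTFR4, the size of that fold is uncertain. Of 14 Kruppel-like factors, 4 rose, 0 fell and 10 were not called, with KLF15, KLF7, KLF5 and KLF3 up by 2.38, 1.04, 0.99 and 0.73. Of these factors 28.6% were called, against 23.9% over all genes, and KLF3 was lost without empty vector 3 (edgeR adjusted p = 0.0598).

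Of 25 TGF-beta, BMP and activin genes, 4 rose, 9 fell and 12 were not called, with FST, the activin trap, up by 1.04 and TGFBR1 down, at -0.63. Between 3 and 6 of them fell with 1 library left out, 3 without ΔTFR4 2 or empty vector 3. Of 13 genes of the EGF receptor family, 1 rose, 3 fell and 9 were not called. The share called was 30.8%, against 23.9% over all genes. NRG1, a ligand of ERBB3, measured 57.8, 55.3 and 57.5 CPM in ΔTFR4, against 76.9, 80.1 and 74.4 CPM in the empty vector (log2 fold change -0.44 ± 0.10, edgeR adjusted p = 0.00727). ERRFI1, a feedback inhibitor of the receptor, rose by 0.73 and ERBB3 fell, at -0.47, both with calls lost in at least 4 of the 6 fits with 1 library left out. EREG was called lower on empty vector 1 and 2 alone, and was higher, at 1.08, against empty vector 3. Of 17 androgen response genes, 2 rose, 2 fell and 13 were not called, a share of 23.5% called against 23.9% over all genes, with TSC22D3, a steroid-induced leucine zipper gene, up by 2.01 and FKBP5 down, at -0.70. NDRG1 rose by 0.72 and lost its call in at least 4 of those fits. Of 6 metallothionein and zinc genes, 0 rose, 3 fell and 3 were not called, with MT1X, MT2A and the importer SLC39A10 at -0.94, -0.59 and -0.53, of which 1 or 2 still fell whichever library was left out, 1 of them in every such fit but the one without ΔTFR4 1. Of 9 drug efflux transporters, 2 rose, 3 fell and 4 were not called. ABCC3 measured 71.8, 83.9 and 77.9 CPM in ΔTFR4, against 29.8, 32.1 and 30.5 CPM in the empty vector (log2 fold change 1.34 ± 0.16, edgeR adjusted p = 0.000558). ABCG2, the stem cell transporter, measured 4.79, 4.34 and 4.65 CPM in ΔTFR4, against 15.3, 11.7 and 16.6 CPM in the empty vector (log2 fold change -1.66 ± 0.22, edgeR adjusted p = 0.000673). ABCC3 was thus high and ABCG2 low, with no overlap between groups. ABCC2 and ABCC5 fell, at -0.55 and -0.82, and lost the call whichever library was left out. ABCB4 was called higher at levels of 0.772, 0.34 and 0.632 CPM in ΔTFR4 and 0, 0.0353 and 0.0757 CPM in the empty vector, too few reads for a fold change, and lost the call without ΔTFR4 1, empty vector 1 or empty vector 2.

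Of 24 neuronal and axon guidance genes, 5 rose, 4 fell and 15 were not called, with a median of 0.05, or 0.01 against empty vector 3 alone. The share called was 37.5%, against 23.9% over all genes. TENM1, a teneurin that joins synaptic partners, measured 32.5, 35.4 and 34.4 CPM in ΔTFR4, against 5.67, 4.05 and 3.48 CPM in the empty vector (log2 fold change 2.95 ± 0.24, edgeR adjusted p = 2.47e-05). NLGN1, a postsynaptic adhesion protein, measured 5.64, 5.70 and 3.64 CPM in ΔTFR4, against 0.56, 0.564 and 0.908 CPM in the empty vector (log2 fold change 2.88 ± 0.38, edgeR adjusted p = 0.000689). SLIT2, a repellent guidance cue, measured 11, 9.86 and 9.15 CPM in ΔTFR4, against 34.3, 33.2 and 32.8 CPM in the empty vector (log2 fold change -1.74 ± 0.21, edgeR adjusted p = 0.000506). The first 2 were high and SLIT2 low in each ΔTFR4 library. SYT1 and UNC5B rose by 1.99 and 2.11. Between 1 and 3 members fell with 1 library left out, 1 of them without ΔTFR4 2. Other genes with large rises were OSCAR, an immunoglobulin-like receptor (4.69), KLHDC7B (4.67), MUC2, the intestinal mucin (3.77), HDGFL1 (3.26), BEX4 (2.93) and RGPD5 (2.92). KLHDC7B measured 0.311, 0.176 and 0 CPM in the empty vector, so the size of its fold is uncertain. It lost the call with no filter on low counts (edgeR adjusted p = 0.0551). RGPD5 belongs to a family of near-identical copies, its ΔTFR4 libraries spread from 4.75 to 48.8 CPM, and it was lost in 5 of the 6 fits with 1 library left out. Other large falls were FXYD3 (-3.47), GAS7 (-3.34), MUC5B (-3.25), UCN2, urocortin 2 (-3.20), FAM222A (-2.62), HPDL (-2.45), GPRIN1 (-2.40) and CD24 (-2.40). GABRP (-2.82) and CYP24A1, the vitamin D hydroxylase (-2.59), also fell, with empty vector 1 and 2 above empty vector 3, which stayed above the ΔTFR4 libraries.

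Of 84 cytosolic ribosomal protein genes, 4 rose, 1 fell and 79 were not called, 5.95% against 23.9% over all genes, though 74 lay above 0 with a median of 0.23, or 0.10 against empty vector 3 alone. RPL12, RPS18, RPL4 and RPL15 rose by 0.65, 0.55, 0.39 and 0.31, and RPS26 fell, at -0.73, with RPL12 alone of the 4 still called whichever library was left out and RPS26 lost without ΔTFR4 2 or 3 or empty vector 3. Of 31 nuclear genes of oxidative phosphorylation, 0 rose, 1 fell (NDUFV2, -0.58, lost without ΔTFR4 1, 2 or 3 or empty vector 1) and 30 were not called, and none of 13 mitochondrially encoded genes was called. Of 26 ribosome biogenesis genes, 1 rose (MYC), 6 fell and 19 were not called, a share of 26.9% called against 23.9% over all genes, with UTP20, NCL, NOLC1 and NOP16 at -0.49, -0.62, -0.41 and -0.44, and 1 to 4 fell with 1 library left out, 1 of them without ΔTFR4 2. Of 24 splicing factors, 1 rose, 11 fell and 12 were not called, with a median of -0.35. HNRNPL, an exon repressor, measured 237, 232 and 233 CPM in ΔTFR4, against 449, 443 and 493 CPM in the empty vector (log2 fold change -0.98 ± 0.17, edgeR adjusted p = 0.00242). SRSF1, HNRNPH1 and HNRNPD fell, at -0.72, -0.53 and -0.67, and CLK1, a kinase of SR proteins, rose by 0.86. HNRNPL was low in all 3 ΔTFR4 libraries, and 6 to 8 factors fell with 1 library left out, 6 of them without ΔTFR4 2 or empty vector 3. Of 25 small nucleolar RNA host genes, 9 rose, 6 fell and 10 were not called. GAS5, a growth arrest transcript, measured 249, 262 and 243 CPM in ΔTFR4, against 125, 135 and 124 CPM in the empty vector (log2 fold change 0.97 ± 0.19, edgeR adjusted p = 0.00371). SNHG32 and SNHG8 rose by 1.79 and 1.14, and SNHG30 and SNHG9 fell, at -1.40 and -1.39. GAS5 did not overlap between groups, and 3 host genes fell without ΔTFR4 1. Of 9 nuclear and small structural RNAs, none was called, which does not show that their levels were steady. The RNA RMRP varied widely within groups, at 2275, 173 and 9103 CPM in ΔTFR4 and 6305, 5453 and 426 CPM in the empty vector.

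AC100801.1 (ENSG00000253154, chr8:85833377-85951083 in GRCh38, plus strand), chosen after its values were seen, had 692, 835 and 635 counts in the ΔTFR4 libraries, against 0, 0 and 1 counts in the empty vector libraries. The full-length libraries held 0, 0 and 2 counts of it, and the 3 libraries without region 5 held 0 counts each. It was thus read in all 3 ΔTFR4 libraries, at 26.7, 31.5 and 23.6 CPM, and at most 2 counts in any other library of the batch.

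The comparison of ΔTFR4 with full-length SLNCR asks which genes differ where both plasmids carry SLNCR and 1 of them lacks region 4. Of the 4489 genes called against the empty vector, 682 (15.2%) were also called against full length in the same direction and 0 in the other. The 2 comparisons share the ΔTFR4 libraries, so they are not independent. In all, 819 genes were called against full length, 4.36% of those tested, with 356 higher in ΔTFR4 (1.9%) and 463 lower (2.47%). SERPINA3 was lower in ΔTFR4 than in the full-length libraries, which held 9.16, 11.7 and 14.1 CPM (log2 fold change -4.38 ± 0.29, edgeR adjusted p = 9.66e-06). TFAP2B, with few reads in ΔTFR4, was lower than the 3.72, 1.44 and 1.66 CPM of the full-length libraries (log2 fold change -5.08 ± 0.51, edgeR adjusted p = 0.000253). A2M was lower than their 5.23, 3.36 and 5.56 CPM (log2 fold change -3.25 ± 0.31, edgeR adjusted p = 0.000216). Each of these genes was low in all 3 ΔTFR4 libraries and in no other library of the 3 groups. TENM1 was higher in ΔTFR4 than in the full-length libraries, at 6.22, 4.61 and 4.72 CPM (log2 fold change 2.71 ± 0.24, edgeR adjusted p = 0.000114). MUC2 was higher than their 4.48, 3.25 and 2.25 CPM (log2 fold change 2.68 ± 0.23, edgeR adjusted p = 0.000114), and so was BGN over 6.79, 9.89 and 5.87 CPM (log2 fold change 1.5 ± 0.21, edgeR adjusted p = 0.004). Here too no full-length or empty vector library reached the lowest ΔTFR4 library. FXYD3, GAS7, MUC5B, UCN2, MMP1, MMP3 and CD24 were lower against full length as well, by -3.22 ± 0.28, -2.55 ± 0.32, -2.28 ± 0.32, -2.84 ± 0.34, -2.92 ± 0.61, -2.09 ± 0.51 and -1.40 ± 0.31, and NLGN1 was higher, by 2.17 ± 0.36. ITGB3, THBS1, POU3F2, HES1, SLIT2 and ABCG2 were lower there, and ABCC3, ITGB4 and COL6A3 higher. TXNIP, EGR1, DDIT3, GDF15, JUN and MYC were not called against full length, which does not show that the 2 groups were alike for them. Leaving out 1 library left 79 to 2220 calls in this comparison, with 114, 79 and 168 without ΔTFR4 1, 2 and 3, and 1708, 1576 and 2220 without full-length 1, 2 and 3. Fitting only the ΔTFR4 and full-length groups gave 33 calls.

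**Figure D5:**
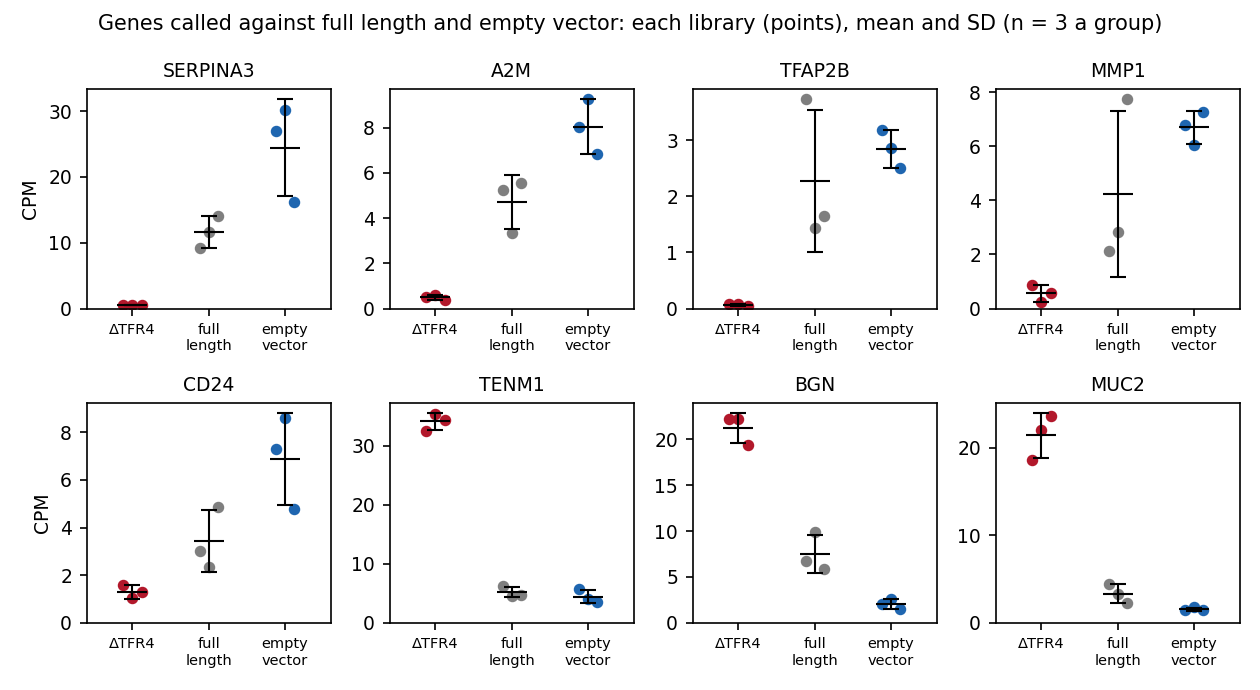
Level (CPM, vertical axes from 0) of 8 genes in each ΔTFR4 (red), full-length (grey) and empty vector (blue) library, with mean and SD (black, n = 3). For all 8 genes, picked as called against both groups, the 3 ΔTFR4 libraries lie on one side of the other 6 libraries.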

How the data were processed

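RNA was sequenced from A375 cells in 2 batches, and only the 12 libraries of batch 2 were used. The authors deposited a table of salmon expected counts (estimated counts per gene, not scaled between libraries) for 60221 genes, per the file headers and the table's name. Tools listed without an order in the submitters' processing notes are STAR 2.7.3a, DESeq2 1.24.0, cutadapt 2.5, Subread 1.6.2 (featureCounts) and FastQC 0.11.5. The same notes list GRCh38 and GRCm38 with no role. Which version and annotation salmon used was not stated by the labels or notes held.

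Estimated counts were rounded to whole numbers, filtered with filterByExpr (minimum count 10, minimum total 15) and scaled by TMM. The 4 groups were fitted together with edgeR 4.0.16 (robust quasi-likelihood, R 4.3.3), and the contrasts were ΔTFR4 minus empty vector and ΔTFR4 minus full length. The p-values were adjusted by Benjamini-Hochberg over 18763 genes and called below 0.05. The procedure was tested on simulated data. Per-gene p-values measure the spread between libraries, which may be partly technical. DESeq2 1.42.0, RLE scaling, no filter, the 2 groups alone, a replicate block, a GC correction and leaving out each library were alternatives.

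The comparison, its gene lists and the genes named were chosen with earlier results of these data known. Named genes were those linked to SLNCR, among called genes the 20 that rose most and the 20 that fell most (mean log2 CPM at least 1, no overlap between groups), and in each list with at least 3 calls the 5 with the lowest adjusted p, or all called members for lists of up to 14 genes, 218 genes in all; a few other members are named to account for counts, and some of the named genes are not reported here. Promoter windows came from RefSeq (GRCh38.p14) and gene positions from GENCODE 29.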

Additional observations from a re-analysis of the deposited data

How the results depend on the processing

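The comparison with the empty vector made 4489 calls, 2342 higher and 2147 lower. DESeq2 made 5134 calls, RLE scaling 4513, no filter 3695 and removal of the GC trend 5995, totals within 1.5 times of it, and 4440, 4391, 3488 and 4362 of these calls were among the 4489. Fitting only the 2 groups gave 9081 (4637 higher, 4444 lower), and leaving the full-length group out of the fit, chosen after seeing the data, gave 8379 (4216 higher, 4163 lower). Leaving out 1 library gave 2309 to 2914 calls, with 1231 to 1556 higher and 1049 to 1358 lower. Against empty vector 3 alone, also chosen after seeing the data, 43 were called (20 higher, 23 lower), and the lone library was assumed to vary like the other groups. Against full length, 819 genes were called, 1861 by DESeq2, 33 with only those 2 groups, 1456 with the GC trend removed, 1558 with the replicate block and GC trend removed, and 79 to 2220 with 1 library left out. The causes were not tested. Of the 217 named genes called, 153 passed in every alternative but the one with a single empty vector library, 64 lost the call in at least 1 of them, and 16 passed in all. POU4F1, not called, ranged from -0.21 to 0.10 with 1 library left out and reversed to 0.03 without ΔTFR4 replicate 3 and 0.10 without empty vector replicate 3. EREG reversed to 1.08 and CDH1 to 0.16 against empty vector 3 alone.

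The replicate numbers gave low correlations between same-numbered libraries, of 0.0206, 0.0761 and -0.0029. With so few libraries these cannot show whether same-numbered libraries were handled together, and the labels do not say. The fit with the replicate block made 4523 calls, 6150 with the GC trend removed as well. In simulated data for this comparison over 18234 genes, 4.48% of 1.5-fold, 53.8% of 2-fold and 89.2% of 4-fold changes were recovered. Every simulated gene was given the same spread and few genes were changed, unlike the real comparison. These shares therefore set no limit on which changes could be detected there.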
